A study of Mus musculus with 12 samples.

Results

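The genes described here encode the motors that carry cargo along microtubules: the kinesins with their light chains, the chains of cytoplasmic dynein, the subunits of its activator dynactin, and the BICD adaptors. They were chosen by name among the protein-coding genes of the count table, as every gene named Kif plus a number, Klc1 to Klc4, every gene whose name begins with Dync, Dctn1 to Dctn6, Dynll1, Dynll2, Dynlt1b, Dynlt3, Dynlrb1, Bicd1, Bicd2 and Actr1a. The rule found 63 of 40912 gene IDs and used no measured value. Of these 63 genes, 60 passed the filter on low counts, while Klc3, Kif12 and Kif2b did not. The name Kif1bp fits the rule although it encodes a kinesin-binding protein and no motor, and the genes spelled Kifc lie outside it.

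The data are read counts per gene from spinal cord of mice at postnatal day 21, from 12 libraries in 4 groups of 3. TRAP_Chat is RNA pulled down with EGFP-tagged ribosomal protein Rpl10a from the line Tg(Chat-EGFP/Rpl10a)DW167Htz, in which Chat sequences drive the tag in cholinergic cells, and PreIP_Chat is RNA taken from cord of that line before the pulldown. TRAP_Snap25 and PreIP_Snap25 are the same RNA fractions from the line Tg(Snap25-EGFP/Rpl10a)JD362Jdd, in which Snap25 sequences drive the tag in neurons. All 4 groups therefore carry a tagged ribosome transgene, and the series sets motor neurons against all neurons of the cord. The labels do not say that the 3 libraries of a group came from separate animals, so the p-values below measure only the spread between these libraries, which may be technical.

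Kinesins move mostly toward the plus ends of microtubules and carry vesicles, mitochondria and cytoskeletal proteins from the cell body into the axon. Cytoplasmic dynein moves toward the minus ends, works together with dynactin and with adaptors such as BICD2, and brings endosomes and signalling cargo back. Long motor axons depend on both directions, and human KIF5A, DCTN1, DYNC1H1 and BICD2 are known disease genes of motor neurons.

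Library totals were 13364081 to 16504397 counts in TRAP_Chat, 17865320 to 20521699 in PreIP_Chat, 10149346 to 14481604 in TRAP_Snap25 and 17686768 to 20336902 in PreIP_Snap25, the shallowest being TRAP_Snap25 replicate 3. Chat itself averaged 159 CPM in TRAP_Chat and 22.2 CPM in PreIP_Chat, and all 7 cholinergic motor neuron markers were called higher in TRAP_Chat than in its input and than in TRAP_Snap25. Snap25 averaged 15694 CPM in TRAP_Snap25 and 9483 CPM in PreIP_Snap25, a difference that missed the threshold (edgeR adjusted p = 0.0544). Of the 7 neuron markers, Snap25 among them, 3 were called higher than input in the Chat pulldown (42.9%, against 12.6% of all tested genes). Only 1 was called higher in the Snap25 pulldown (14.3%, against 9.69%), and 0 were called lower in either. Their median log2 change was 0.38 in the Chat line and 0.28 in the Snap25 line, and the lowest were -0.59 and -0.08. The 7 oligodendrocyte markers summed to 2122 to 5739 CPM in TRAP_Chat against 16793 to 22168 CPM in PreIP_Chat, and to 1671 to 5139 CPM in TRAP_Snap25 against 15700 to 20474 CPM in PreIP_Snap25, with none of the 7 at 0 in any group. TRAP_Chat replicate 1 and TRAP_Snap25 replicate 3 stood apart from the other pulldowns of their lines, with oligodendrocyte sums of 29.3% and 28.7% of their input means, against 10.8% and 15.5% for the other TRAP_Chat libraries and 11.6% and 9.33% for the other TRAP_Snap25 libraries. The counts of calls in each pulldown against its input are also given without these libraries.

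In the cholinergic pulldown, 12 of the 60 tested genes were called higher than in the input (20.0%, against 12.6% of all 15905 tested genes) and 5 were called lower (8.33%, against 14.3% of all tested genes), by edgeR's quasi-likelihood test at an adjusted p under 0.05. The genes called higher included the dynein light chains Dynlt3, Dynlrb1 and Dynll2, the kinesin light chain Klc1 and 3 dynactin subunits. Those called lower were Kif13b, Kif1c, Kif19a, Kif13a and Bicd2. The median log2 change of the tested members was 0.19, beside -0.06 over all tested genes. Without TRAP_Chat replicate 1 there were 11 higher and 5 lower, and the share of all tested genes in that fit is not given here. In bulk RNA, a lower level because fewer cells of a type contribute and a lower level because each cell holds less RNA cannot be told apart. A difference in how much of a gene's RNA is bound to ribosomes cannot be told apart from these either, since only the pulldown selects for it.

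In the Snap25 pulldown, 7 of the 60 tested genes were called higher than in the input (11.7%, against 9.69% of all tested genes) and 6 were called lower (10%, against 12.7%). The median log2 change of the members was -0.08, and that of all tested genes -0.00. Without TRAP_Snap25 replicate 3 there were 8 higher and 9 lower. These counts rested on few libraries: without PreIP_Snap25 replicate 1 they were 3 higher and 3 lower, and without PreIP_Snap25 replicate 2 they were 2 higher and 3 lower. The fit of only the groups compared called 3 higher. Shares of all tested genes in these fits are not given here. A change of the members alone therefore cannot be told from a change in calls over all genes.

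The comparisons with input in the 2 lines set separate libraries against each other, but 1 fit of all 12 libraries gave both. The estimate of spread was shared, so the 2 lists of calls are not independent. All 7 genes called higher in the Snap25 pulldown were among the 12 of the Chat pulldown (100% and 58.3% of each list): Dynlrb1, Dynlt3, Dynll2, Klc1, Dync1i1, Dctn5 and Dctn6. The 5 genes called lower in the Chat pulldown, Kif13b, Kif1c, Kif19a, Kif13a and Bicd2, were all among the 6 of the Snap25 pulldown (100% and 83.3%). The sixth was Kif2c, which had been called higher in the Chat pulldown. The sign of the change was shared by 43 of the 60 tested genes, beside 11958 of all 15905 tested genes. Between the lines, the log2 changes had a Spearman's rho of 0.58 over the members and 0.65 over all tested genes. Pearson's r was 0.25 and 0.61. The value over the members includes Kif2c, at a fitted log2 change of 3.57 in the Chat line and -5.77 in the Snap25 line. The second of these rests on 0 counts in TRAP_Snap25 and is no measured fold, so Pearson's r of the members should be read with this limit. The overlap of called genes is not given over all tested genes, so it cannot be read as particular to the motor genes.

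**Figure D1:**
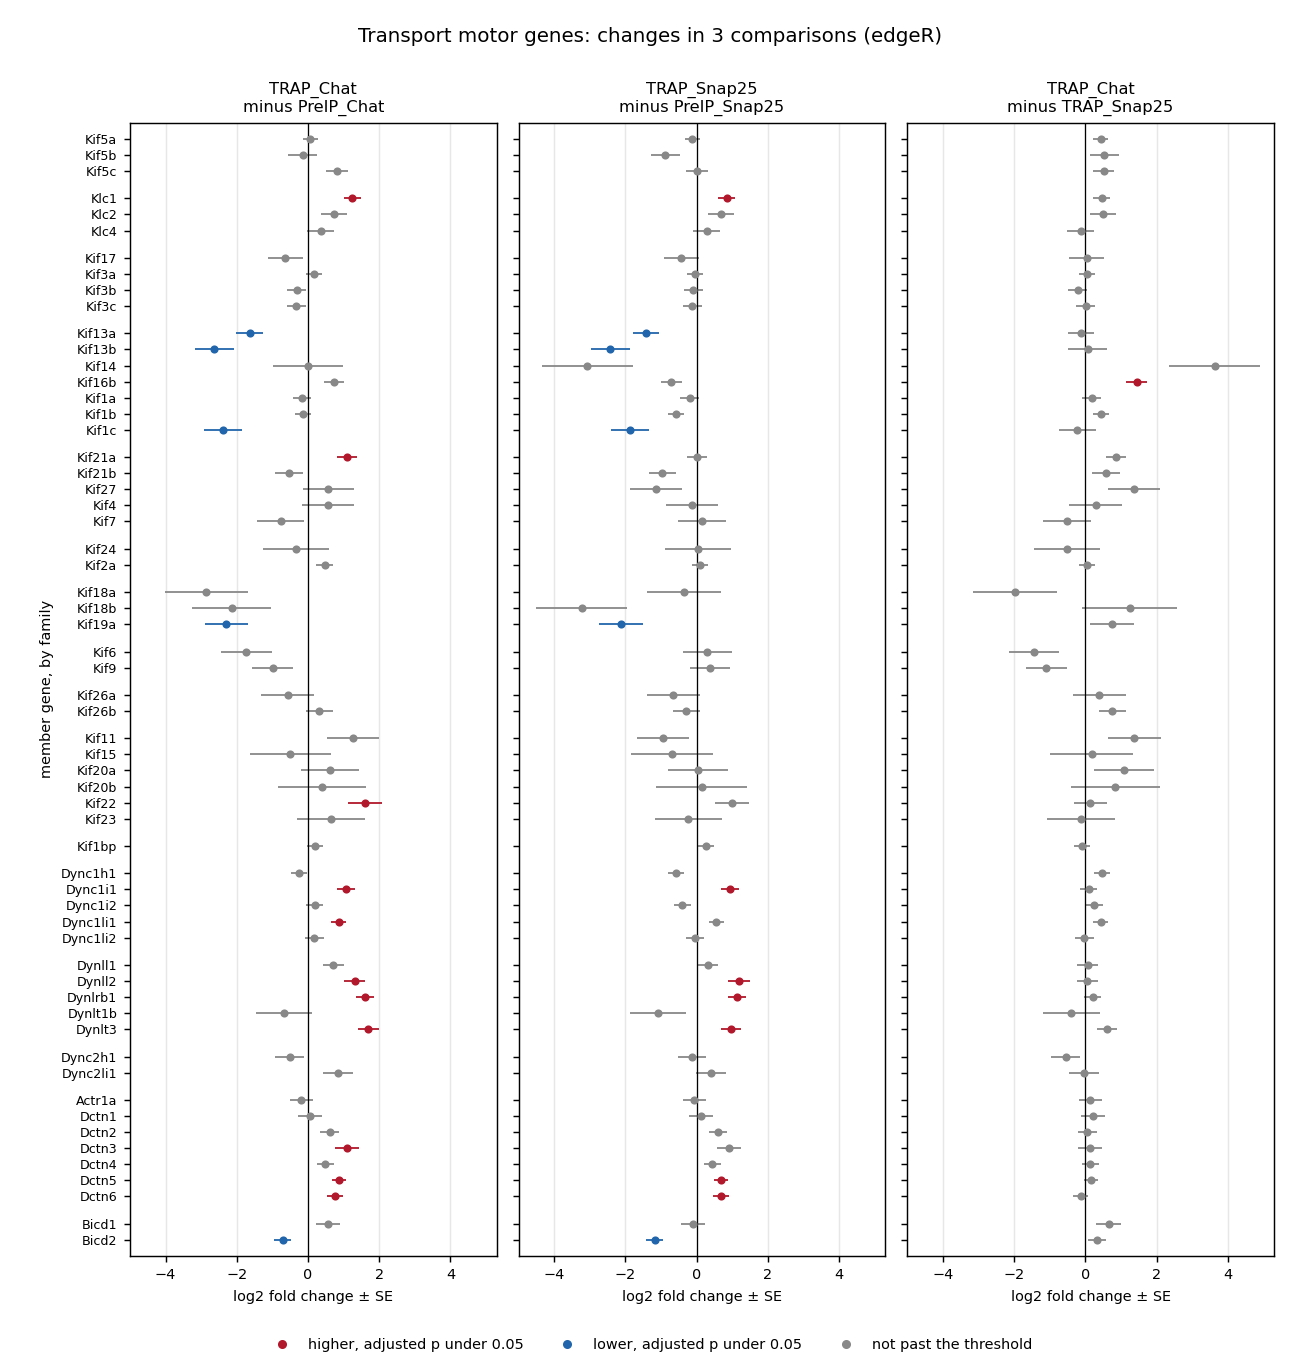
Log2 fold change (x axis) with its standard error from edgeR for the tested motor genes (y axis, by family), in TRAP_Chat minus PreIP_Chat, TRAP_Snap25 minus PreIP_Snap25 and TRAP_Chat minus TRAP_Snap25. Red marks genes called higher and blue genes called lower at an adjusted p under 0.05, and Kif2c is left out because TRAP_Snap25 held no count of it; the red dynein light chains and the blue Kif13b, Kif1c and Kif19a stand on the same sides in the left and middle panels, and Kif16b is the red point on the right.

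The 300 bases around the start sites of 4 genes that the results turn on are given here, 250 before and 50 after the start, as RefSeq gives them on GRCm38.p6. Dynlrb1 (chr2:155236283-155236582, plus strand, the first listed of its 2 starts) and Dynlt3 (chrX:9662934-9663233, minus strand) rose in both pulldowns, Kif1c (chr11:70700298-70700597, plus strand) fell in both, and Kif16b (chr2:142901415-142901714, minus strand) differed between the pulldowns. Capitals mark the GC box, GGGCGG, found on either strand (CCGCCC on the strand shown).
Dynlrb1: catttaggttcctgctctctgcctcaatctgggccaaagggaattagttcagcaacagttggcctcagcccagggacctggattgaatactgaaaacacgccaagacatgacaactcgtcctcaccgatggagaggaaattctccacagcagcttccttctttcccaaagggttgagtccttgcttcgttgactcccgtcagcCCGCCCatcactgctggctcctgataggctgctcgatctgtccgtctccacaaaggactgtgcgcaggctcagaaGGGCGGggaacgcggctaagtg
Dynlt3: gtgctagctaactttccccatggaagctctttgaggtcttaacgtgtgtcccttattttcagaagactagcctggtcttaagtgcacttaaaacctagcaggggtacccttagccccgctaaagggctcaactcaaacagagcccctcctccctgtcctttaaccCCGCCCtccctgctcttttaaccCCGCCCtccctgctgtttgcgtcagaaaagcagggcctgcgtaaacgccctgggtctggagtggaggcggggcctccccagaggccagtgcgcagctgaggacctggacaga
Kif1c: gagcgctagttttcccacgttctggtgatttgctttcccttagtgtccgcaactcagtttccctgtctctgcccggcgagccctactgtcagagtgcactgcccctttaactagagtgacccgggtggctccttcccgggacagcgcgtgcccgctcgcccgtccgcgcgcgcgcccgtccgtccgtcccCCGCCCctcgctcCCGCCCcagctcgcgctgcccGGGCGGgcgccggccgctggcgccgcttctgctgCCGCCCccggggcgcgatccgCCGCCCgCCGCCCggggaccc
Kif16b: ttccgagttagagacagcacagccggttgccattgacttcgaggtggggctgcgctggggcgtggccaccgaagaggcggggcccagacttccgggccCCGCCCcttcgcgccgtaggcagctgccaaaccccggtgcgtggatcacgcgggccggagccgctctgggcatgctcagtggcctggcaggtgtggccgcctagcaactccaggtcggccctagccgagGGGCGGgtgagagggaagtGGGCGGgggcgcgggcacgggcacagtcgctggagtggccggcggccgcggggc

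The 4 sequences held 2, 2, 6 and 3 GC boxes in the order shown, and none held CCAAT or TATAAA on either strand. Bases G and C made up 55.0% of the Dynlrb1 sequence, 57.0% of Dynlt3, 73.3% of Kif1c and 73.0% of Kif16b. The RefSeq table held 56 promoters of 49 of the 63 genes, and 66.1% of these had a GC box, beside 35.7% of all 32851 promoters of the same length. CCAAT stood in 42.9% of the members' promoters and in 37.4% of all, and TATAAA in 8.93% and in 13.6%. These are matches of letters and not measured binding. The genes not matched were Dctn4, Dctn6, Dync1li2, Dync2li1, Dynll2, Dynlt1b, Kif13b, Kif19a, Kif1bp, Kif20a, Kif21b, Kif5a, Kif5b and Klc2.

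The heavy chains of kinesin-1, the main motor of fast transport into axons, did not pass the test in any comparison in the fit of all 12 libraries. Kif5a had 616, 606 and 652 CPM in TRAP_Chat, 628, 551 and 607 CPM in PreIP_Chat, 425, 529 and 428 CPM in TRAP_Snap25 and 561, 517 and 422 CPM in PreIP_Snap25. The pulldown and input libraries overlapped in each line, and all 3 TRAP_Chat libraries lay above all 3 TRAP_Snap25 libraries, by 0.44 ± 0.21 on the log2 scale (SE; edgeR adjusted p = 0.235). Kif5c had 375, 573 and 661 CPM in TRAP_Chat against 261, 248 and 408 CPM in PreIP_Chat, and 361, 467 and 296 CPM in TRAP_Snap25 against 275, 517 and 325 CPM in PreIP_Snap25. Its TRAP_Chat range overlapped the input, at a log2 difference of 0.81 ± 0.30 (edgeR adjusted p = 0.0556). Of the 18 alternatives, 8 called Kif5c higher in the Chat pulldown, with adjusted p down to 0.0168 in edgeR with the replicate block, and 0.0291 in edgeR without TRAP_Chat replicate 1. The ubiquitous Kif5b had 65.7, 80.8 and 63.6 CPM in TRAP_Chat, 63.3, 74.4 and 94.5 CPM in PreIP_Chat, 88.2, 39.8 and 16.5 CPM in TRAP_Snap25 and 77.9, 117 and 71.0 CPM in PreIP_Snap25, with overlap in every comparison. Kif5b was called lower in the Snap25 pulldown with no filter on low counts (edgeR adjusted p = 0.0141) and with the replicate block (edgeR adjusted p = 0.0311).

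Klc1, the light chain that links kinesin-1 to cargo in neurons, rose in both pulldowns. It had 796, 952 and 1129 CPM in TRAP_Chat against 427, 368 and 415 CPM in PreIP_Chat, and 593, 657 and 845 CPM in TRAP_Snap25 against 386, 320 and 458 CPM in PreIP_Snap25. No pulldown library of either line overlapped its inputs. The rise was 2.38-fold in the Chat line (log2 1.25 ± 0.24, edgeR adjusted p = 0.00135) and 1.80-fold in the Snap25 line (log2 0.85 ± 0.23, edgeR adjusted p = 0.0165). The call in the Snap25 line was lost without PreIP_Snap25 replicate 1 or 2 (edgeR adjusted p up to 0.0844) and when only the groups compared were fitted (0.0566). Klc2 averaged 375 ± 110 CPM in TRAP_Chat and 225 ± 57.6 CPM in PreIP_Chat, and Klc4 9.60 ± 1.41 and 7.48 ± 0.489 CPM (SD, n = 3), and neither passed the test. Klc2 was called higher in the Chat pulldown when only the groups compared were fitted (edgeR adjusted p = 0.0484) and with no filter on low counts (edgeR adjusted p = 0.0475).

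Per kilobase of summed exon length, Dynlrb1 was the highest of the 63 genes in every group. Its mean levels were 1449 CPM per kb in TRAP_Chat, 478 in PreIP_Chat, 1253 in TRAP_Snap25 and 570 in PreIP_Snap25. Dynll2 came next with 394 CPM per kb in TRAP_Chat and 379 in TRAP_Snap25. The summed exons are those of all annotated transcripts, so this order depends on the lengths used. In CPM, not divided by length, Kif1a lay above Dynlrb1 in PreIP_Chat (1484 against 482) and PreIP_Snap25 (1345 against 575). It lay below Dynlrb1 in TRAP_Chat (1324 against 1462) and TRAP_Snap25 (1171 against 1264). Among the motor chains themselves, Kif1a stood at 142 CPM per kb in TRAP_Chat, Kif5a at 89.3, Kif5c at 75.1, Kif21a at 62.7 and Kif1b at 45.1, while Dync1h1 stood at 23.9. The summed level of the 63 genes was 11428 ± 1118 CPM in TRAP_Chat and 8108 ± 348 CPM in PreIP_Chat, and 9464 ± 394 CPM in TRAP_Snap25 and 8024 ± 316 CPM in PreIP_Snap25 (SD, n = 3 each). The 5 dynein light chains alone gave 3206 ± 510 of this CPM in TRAP_Chat against 1194 ± 104 in PreIP_Chat, and 2807 ± 566 in TRAP_Snap25 against 1356 ± 80.9 in PreIP_Snap25.

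The 4 kinesin-2 genes, which serve cilia and some axonal cargo, gave no call in either pulldown. Kif3a had 111, 119 and 115 CPM in TRAP_Chat and 106, 104 and 96.3 CPM in PreIP_Chat, and 124, 132 and 78.6 CPM in TRAP_Snap25 against 121, 128 and 99.5 CPM in PreIP_Snap25. The Chat libraries did not overlap, yet the log2 difference was 0.17 ± 0.22 (edgeR adjusted p = 0.599). Kif3c averaged 138 ± 41.1 CPM in TRAP_Chat and 174 ± 29.1 CPM in PreIP_Chat (SD, n = 3), and 35.3% of its exonic bases lie under an antisense gene, so reads of both cannot be told apart while the strand setting is unknown.

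Of the 7 kinesin-3 genes, most of which move vesicles and endosomes, 3 fell in each pulldown (42.9%, against 14.3% of all tested genes in the Chat line and 12.7% in the Snap25 line) and none was called higher than input by edgeR. Kif13b had 4.63, 2.64 and 3.96 CPM in TRAP_Chat against 20.3, 26.4 and 23.5 CPM in PreIP_Chat, and 2.28, 0.837 and 8.03 CPM in TRAP_Snap25 against 24.1, 15.9 and 18.4 CPM in PreIP_Snap25. Every pulldown library lay below every input library, at 6.22-fold lower in the Chat line (log2 -2.64 ± 0.55, edgeR adjusted p = 0.00251) and 5.40-fold lower in the Snap25 line (log2 -2.43 ± 0.55, edgeR adjusted p = 0.00548). Without TRAP_Snap25 replicate 3, the fall of Kif13b in the Snap25 line was 12.8-fold (log2 -3.67, edgeR adjusted p = 6.16e-05).

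Kif1c, a vesicle motor linked to the Golgi, had 15.3, 3.40 and 7.08 CPM in TRAP_Chat against 54.2, 43.5 and 36.8 CPM in PreIP_Chat, and 4.41, 5.47 and 20.8 CPM in TRAP_Snap25 against 40.6, 38.1 and 32 CPM in PreIP_Snap25. No pulldown library overlapped its inputs, and the highest pulldown values were those of TRAP_Chat replicate 1 and TRAP_Snap25 replicate 3, the libraries with the highest oligodendrocyte sums. It fell 5.20-fold in the Chat line (edgeR adjusted p = 0.00415) and 3.65-fold in the Snap25 line (edgeR adjusted p = 0.0188), and the call in the Snap25 line was lost without TRAP_Snap25 replicate 1 or 2 or PreIP_Snap25 replicate 1 or 2 (edgeR adjusted p up to 0.0723). Without TRAP_Chat replicate 1 the fall of Kif1c in the Chat line was 8.48-fold (edgeR adjusted p = 0.00163), and without TRAP_Snap25 replicate 3 that in the Snap25 line was 7.49-fold (edgeR adjusted p = 0.000565). Kif13a, which carries endosomal and Golgi cargo, had 21.1, 7.40 and 9.73 CPM in TRAP_Chat against 42.1, 32.2 and 44.8 CPM in PreIP_Chat, and 9.11, 19.1 and 13.4 CPM in TRAP_Snap25 against 41.6, 43.5 and 27.2 CPM in PreIP_Snap25. No pulldown library overlapped its inputs, and Kif13a fell 3.11-fold in the Chat line (edgeR adjusted p = 0.00466) and 2.69-fold in the Snap25 line (edgeR adjusted p = 0.0123; up to 0.0506 without TRAP_Snap25 replicate 1 or PreIP_Snap25 replicate 2). Kif13a was highest in TRAP_Chat replicate 1, as Kif1c was. Among the TRAP_Snap25 libraries it was highest in replicate 2, which had the lowest oligodendrocyte sum (1671 CPM). All 7 oligodendrocyte and all 6 astrocyte markers were called lower in both pulldowns as well, and their part in these falls was not tested.

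The synaptic vesicle motors of the kinesin-3 family did not pass the edgeR test of all 12 libraries. Kif1a had 1162, 1512 and 1297 CPM in TRAP_Chat, 1655, 1518 and 1277 CPM in PreIP_Chat, 931, 988 and 1594 CPM in TRAP_Snap25 and 1630, 1089 and 1314 CPM in PreIP_Snap25. Kif1b had 651, 936 and 792 CPM in TRAP_Chat, 818, 828 and 989 CPM in PreIP_Chat, 585, 664 and 511 CPM in TRAP_Snap25 and 893, 864 and 882 CPM in PreIP_Snap25. Only for Kif1b in the Snap25 line did no library overlap, with a log2 difference of -0.58 ± 0.22 (edgeR adjusted p = 0.0667). DESeq2 called Kif1b lower there (DESeq2 adjusted p = 0.0219).

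**Figure D2:**
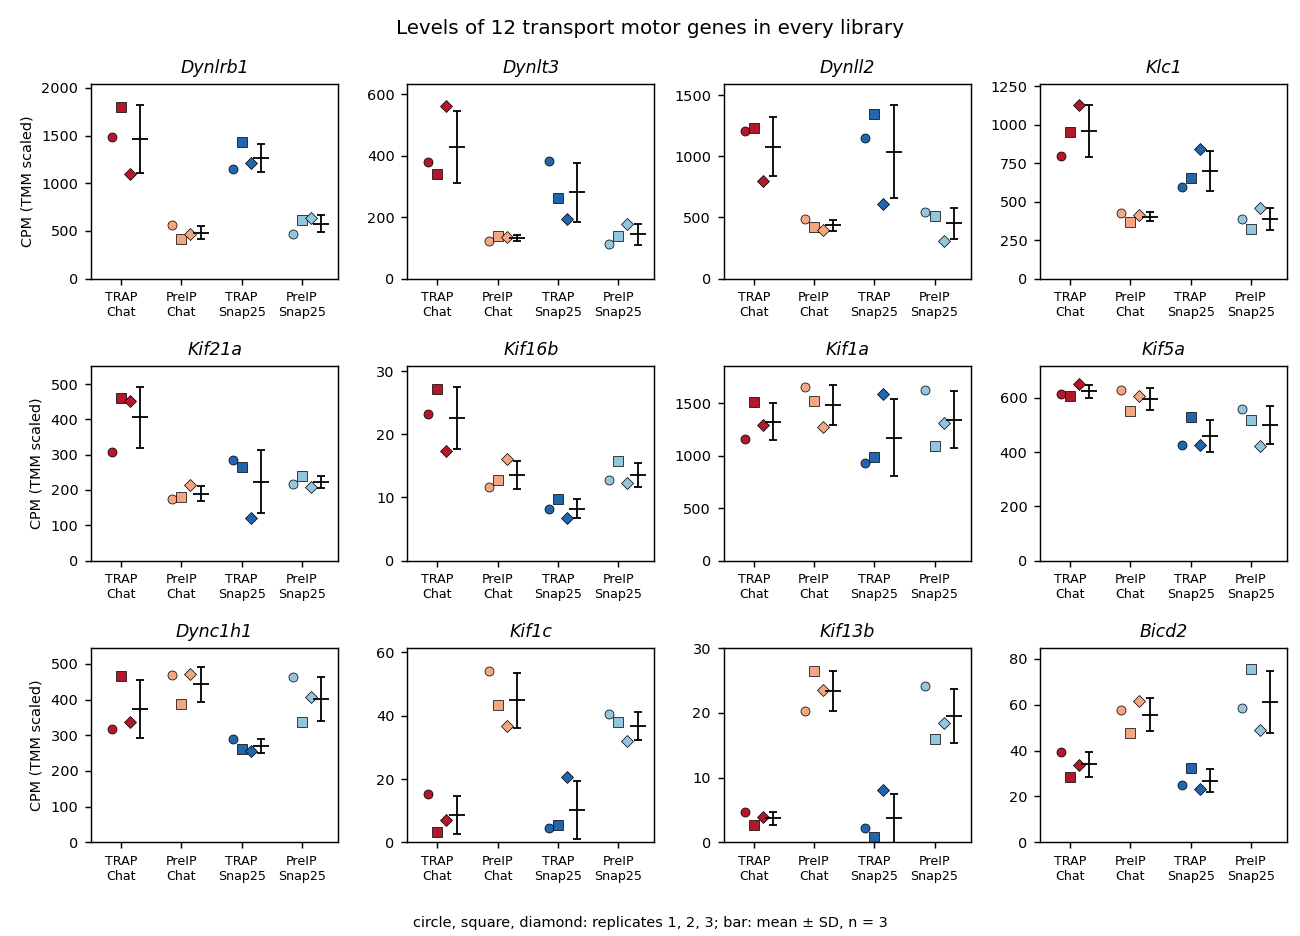
Level in TMM-scaled CPM (y axis, linear, from 0) of 12 motor genes in each library of the 4 groups (x axis); circles, squares and diamonds are replicates 1, 2 and 3, and the bars give the mean ± SD (n = 3). Dynlrb1, Dynlt3, Dynll2 and Klc1 lie higher in both pulldowns than in their inputs, Kif1c, Kif13b and Bicd2 lie lower, Kif16b lies highest in TRAP_Chat and lowest in TRAP_Snap25, and Kif1a overlaps across all 4 groups.

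Kif16b, which moves early endosomes, separated the pulldowns of the 2 lines. It had 23.2, 27.1 and 17.3 CPM in TRAP_Chat and 8.15, 9.71 and 6.81 CPM in TRAP_Snap25, with 11.7, 12.8 and 16.0 CPM in PreIP_Chat and 12.7, 15.7 and 12.2 CPM in PreIP_Snap25. All TRAP_Chat libraries lay above all others, all TRAP_Snap25 libraries lay below all others, and the inputs overlapped. It was 2.72-fold higher in TRAP_Chat than in TRAP_Snap25 (log2 1.45 ± 0.30, edgeR adjusted p = 0.00741), and the call was lost when only these groups were fitted (edgeR adjusted p = 0.0614). The changes against input missed the threshold in edgeR, at log2 0.73 ± 0.29 in the Chat line (edgeR adjusted p = 0.0707) and -0.71 ± 0.29 in the Snap25 line (edgeR adjusted p = 0.0928), and so did the difference between those changes, at 1.44 ± 0.41 (edgeR adjusted p = 0.113). DESeq2 called the rise in the Chat line (DESeq2 adjusted p = 0.0358) and the difference between the changes (DESeq2 adjusted p = 0.0209).

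Between the pulldowns, 2 of the 60 tested genes were called higher in TRAP_Chat than in TRAP_Snap25 (3.33%, against 3.97% of all tested genes) and 0 were called lower (against 2.77%; DESeq2 also called 0 lower, and 5 members in either direction had an unadjusted edgeR p under 0.05). The share of members called was no larger than that of all genes. The median log2 difference of the members was 0.17, beside 0.01 over all tested genes, and 44 of the 60 were positive. The other gene called was Kif2c, which is described with the kinesins of cell division. The inputs of the 2 lines gave 0 calls among the members in either direction (0% of all tested genes), by edgeR and by DESeq2, with 0 members and 133 of all genes at an unadjusted edgeR p under 0.05. Those 133 are a smaller share than 0.05, so this test was conservative and does not show that the inputs were alike. Kif19a averaged 14.8 CPM in PreIP_Chat and 7.75 CPM in PreIP_Snap25, without overlap. The cholinergic marker Slc18a3 averaged 184 ± 17.8 CPM in PreIP_Chat and 50.7 ± 24.1 CPM in PreIP_Snap25 (SD, n = 3). This was the largest difference among the 7 cholinergic markers, whose log2 differences ran from -0.25 to 1.86 with a median of 0.19. Of the 60 members, 29 were positive, as were 6 of the 7 cholinergic markers.

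Kif21a, a kinesin-4 motor that restrains microtubule growth and whose human form is known from an eye movement disorder, rose in the Chat pulldown. It had 307, 460 and 451 CPM in TRAP_Chat against 174, 181 and 215 CPM in PreIP_Chat, and 284, 266 and 121 CPM in TRAP_Snap25 against 218, 241 and 209 CPM in PreIP_Snap25. The Chat groups did not overlap and the Snap25 groups did. The rise was 2.14-fold in the Chat line (edgeR adjusted p = 0.00981), the log2 change in the Snap25 line was 0.01 ± 0.28 (edgeR adjusted p = 0.989), and the difference between the lines did not pass (1.09 ± 0.40, edgeR adjusted p = 0.268). TRAP_Chat lay above TRAP_Snap25 in every library, by log2 0.86 ± 0.28 (edgeR adjusted p = 0.0809; DESeq2 adjusted p = 0.0328). Its relative Kif21b averaged 42.9 ± 22.7 CPM in TRAP_Chat and 62.2 ± 3.23 CPM in PreIP_Chat (SD, n = 3) and did not pass.

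Kif19a, a kinesin-8 motor that trims microtubules at the tips of motile cilia, had 4.76, 2.12 and 2.13 CPM in TRAP_Chat against 15.6, 16.9 and 11.7 CPM in PreIP_Chat, and 2.06, 0.223 and 3.25 CPM in TRAP_Snap25 against 8.57, 7.51 and 7.17 CPM in PreIP_Snap25. No pulldown library reached an input library. The gene fell 4.91-fold in the Chat line (log2 -2.29 ± 0.60, edgeR adjusted p = 0.00997) and 4.33-fold in the Snap25 line (log2 -2.12 ± 0.61, edgeR adjusted p = 0.0214), and the Snap25 call was lost without PreIP_Snap25 replicate 1 or 2 (edgeR adjusted p up to 0.0633) and when only the groups compared were fitted (0.0602). Without TRAP_Snap25 replicate 3 the fall of Kif19a in that line was 7.03-fold (edgeR adjusted p = 0.0068). The 6 ependymal markers summed to 11.1 to 26.0 CPM in TRAP_Chat against 36.2 to 47.0 CPM in PreIP_Chat, and to 7.59 to 27.6 CPM in TRAP_Snap25, where Tmem212 was at 0, against 33.3 to 40.6 CPM in PreIP_Snap25. Of the 5 ependymal markers tested, 3 were called lower in the Chat line and 1 in the Snap25 line, and their part in the fall of Kif19a was not tested.

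The 11 kinesins known from cell division were low, and apart from Kif22 none averaged more than the 3.02 CPM of Kif11 in TRAP_Chat. Kif2c, which takes microtubule ends apart at centromeres, had 65, 5 and 10 counts in TRAP_Chat, 0, 0 and 0 counts in TRAP_Snap25, 2, 3 and 2 counts in PreIP_Chat and 12, 4 and 5 counts in PreIP_Snap25. Most of its TRAP_Chat counts came from replicate 1. A filter of 1 CPM in 3 libraries removed the gene, and so did the filter of the fit on only the pulldowns. Against a floor of 3 counts over the group, Kif2c was at least 22.7-fold higher in TRAP_Chat than in TRAP_Snap25 (edgeR adjusted p = 0.0116) and at least 5.91-fold lower in TRAP_Snap25 than in PreIP_Snap25 (edgeR adjusted p = 0.0264). Without TRAP_Chat replicate 1, the other 2 TRAP_Chat libraries held 15 counts and Kif2c was at least 6.37-fold higher in TRAP_Chat than in TRAP_Snap25, with an edgeR adjusted p that rounds to 0.05. The rise over PreIP_Chat had an edgeR adjusted p of 0.0267, which became 0.265 without TRAP_Chat replicate 1 and 0.121 with the replicate block. This call was also lost without any PreIP_Chat library, and the Snap25 call was lost without TRAP_Snap25 replicate 1 or 2 or PreIP_Snap25 replicate 1 (edgeR adjusted p up to 0.0799). Kif2c was the 1 member of 60 called in the test of the difference between the lines' changes (1.67%, against 0.604% of all genes called higher), a call that the replicate block ended (edgeR adjusted p = 0.117), and 0 members were called lower there (against 0.440%; 0 by DESeq2, and 3 in either direction at an unadjusted edgeR p under 0.05).

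Kif22, a kinesin that binds chromosome arms, had 24.3, 16.7 and 6.56 CPM in TRAP_Chat against 5.98, 4.82 and 4.97 CPM in PreIP_Chat, and 10.4, 24.7 and 7.93 CPM in TRAP_Snap25 against 5.28, 8.29 and 8.28 CPM in PreIP_Snap25. The Chat groups did not overlap, but TRAP_Chat replicate 3 was close to the input. The rise in the Chat line was 3.01-fold (log2 1.59 ± 0.48, edgeR adjusted p = 0.0213) and was lost without TRAP_Chat replicate 1 or any of the PreIP_Chat libraries (edgeR adjusted p up to 0.103). Markers of dividing cells summed to 44.0, 20.9 and 9.58 CPM in TRAP_Chat replicates 1, 2 and 3, against 8.79 to 23.9 CPM in PreIP_Chat, and to 11.8, 7.70 and 4.17 CPM in TRAP_Snap25, against 11.5 to 13.5 CPM in PreIP_Snap25. The order of the replicates was that of Kif22 in TRAP_Chat but not in TRAP_Snap25, where replicate 2 had the highest Kif22 level and replicate 1 the highest marker sum. None of the 6 markers was at 0 in a whole group, and their part in the Kif22 and Kif2c values was not tested.

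The dynein light chains, which hold the dynein complex together and bind cargo, gave 3 rises among 5 tested genes in each pulldown (60%, against 12.6% of all tested genes in the Chat line and 9.69% in the Snap25 line). Dynlrb1 had 1490, 1803 and 1093 CPM in TRAP_Chat against 558, 417 and 472 CPM in PreIP_Chat, and 1146, 1429 and 1217 CPM in TRAP_Snap25 against 473, 620 and 631 CPM in PreIP_Snap25. All pulldown libraries lay above all inputs, at 3.03-fold in the Chat line (log2 1.60 ± 0.25, edgeR adjusted p = 0.000331) and 2.20-fold in the Snap25 line (log2 1.14 ± 0.25, edgeR adjusted p = 0.00436). Both calls stood without each library in turn, with edgeR adjusted p up to 0.00409 in the Chat line and 0.0269 in the Snap25 line.

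Dynlt3 had 381, 342 and 563 CPM in TRAP_Chat against 121, 140 and 135 CPM in PreIP_Chat, and 383, 263 and 195 CPM in TRAP_Snap25 against 112, 140 and 179 CPM in PreIP_Snap25. The groups were far apart in the Chat line and close in the Snap25 line, without overlap in either. It rose 3.25-fold in the Chat line (log2 1.70 ± 0.28, edgeR adjusted p = 0.000532) and 1.95-fold in the Snap25 line (log2 0.97 ± 0.28, edgeR adjusted p = 0.0201), where the call was lost without TRAP_Snap25 replicate 1 or PreIP_Snap25 replicate 1 or 2 (edgeR adjusted p up to 0.106) and when only the groups compared were fitted (0.0531). The difference between the lines was 0.73 ± 0.39 (edgeR adjusted p = 0.504).

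Dynll2 had 1207, 1231 and 798 CPM in TRAP_Chat against 484, 422 and 400 CPM in PreIP_Chat, and 1153, 1344 and 614 CPM in TRAP_Snap25 against 545, 508 and 309 CPM in PreIP_Snap25. Replicate 3 was the lowest library of each pulldown, and no pulldown library overlapped its inputs. The rises were 2.48-fold in the Chat line (edgeR adjusted p = 0.00516) and 2.28-fold in the Snap25 line (edgeR adjusted p = 0.0109; 0.0543 without TRAP_Snap25 replicate 2). Its paralog Dynll1 averaged 236 ± 39.9 CPM in TRAP_Chat and 144 ± 11.2 CPM in PreIP_Chat (SD, n = 3), a log2 difference of 0.71 ± 0.29 that missed the threshold (edgeR adjusted p = 0.0819) but passed when only the groups compared were fitted (edgeR adjusted p = 0.0148). Dynlt1b stayed below 2 CPM in every library, and as a gene with near-identical copies its counts are uncertain.

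The core chains of dynein differed among themselves. Dync1h1, the heavy chain that holds the motor domain, had 318, 466 and 337 CPM in TRAP_Chat, 470, 387 and 473 CPM in PreIP_Chat, 291, 261 and 257 CPM in TRAP_Snap25 and 462, 337 and 406 CPM in PreIP_Snap25. TRAP_Snap25 lay below every other library and the other groups overlapped. Its log2 change was -0.25 ± 0.22 in the Chat line (edgeR adjusted p = 0.438) and -0.57 ± 0.22 in the Snap25 line (edgeR adjusted p = 0.0752). DESeq2 called Dync1h1 lower in the Snap25 line (DESeq2 adjusted p = 0.0396).

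Dync1i1, the intermediate chain enriched in neurons, rose in both pulldowns. It had 78.9, 125 and 81.0 CPM in TRAP_Chat against 49.2, 42.6 and 44.5 CPM in PreIP_Chat, and 83.5, 99 and 84.8 CPM in TRAP_Snap25 against 55.2, 32.7 and 51.9 CPM in PreIP_Snap25. No pulldown library overlapped its inputs, with rises of 2.09-fold in the Chat line (edgeR adjusted p = 0.00571) and 1.91-fold in the Snap25 line (edgeR adjusted p = 0.0145; up to 0.0822 without TRAP_Snap25 replicate 2 or PreIP_Snap25 replicate 2). The paralog Dync1i2, found in most cells, averaged 110 ± 10.4 CPM in TRAP_Chat and 96.9 ± 14.4 CPM in PreIP_Chat, and 92.8 ± 24.9 CPM in TRAP_Snap25 and 123 ± 14.7 CPM in PreIP_Snap25 (SD, n = 3 each), and did not pass. Of the light intermediate chains, which bind adaptors, Dync1li1 rose 1.82-fold in the Chat line (106 ± 20.7 against 58.5 ± 3.53 CPM, edgeR adjusted p = 0.00747) and Dync1li2 did not pass. The dynein-2 genes Dync2h1 and Dync2li1, which serve cilia, did not pass in any comparison.

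The share of Dync1i1 in the intermediate chains, computed per kilobase, was 61.1%, 71.4% and 65.6% in TRAP_Chat against 58.6%, 47.9% and 50.1% in PreIP_Chat, and 64.0%, 68.5% and 75.4% in TRAP_Snap25 against 48.4%, 37.8% and 52.8% in PreIP_Snap25. Pulldown and input did not overlap in either line, and an exact two-sided permutation test of 3 libraries against 3 cannot give a p below 0.1. Bicd1 made up 30.7 ± 4.60% of the BICD adaptors in TRAP_Chat and 15.5 ± 2.85% in PreIP_Chat (SD, n = 3), without overlap, and 34.8%, 26.0% and 13.1% in TRAP_Snap25, where replicate 3 fell within the 13.1% to 15.5% of PreIP_Snap25. The size of these shares depends on the summed exon lengths, 27.4 kb for Bicd1 and 6.32 kb for Bicd2. In CPM, not divided by length, Bicd1 averaged 64.5 and Bicd2 33.9 in TRAP_Chat, and 43.6 and 55.6 in PreIP_Chat. Kif5a gave 52.1 ± 6.19% of the kinesin-1 heavy chains in TRAP_Chat and 62.3 ± 5.82% in PreIP_Chat, and Kif5c 42.8 ± 6.64% and 30.7 ± 5.19%, with overlapping libraries.

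**Figure D3:**
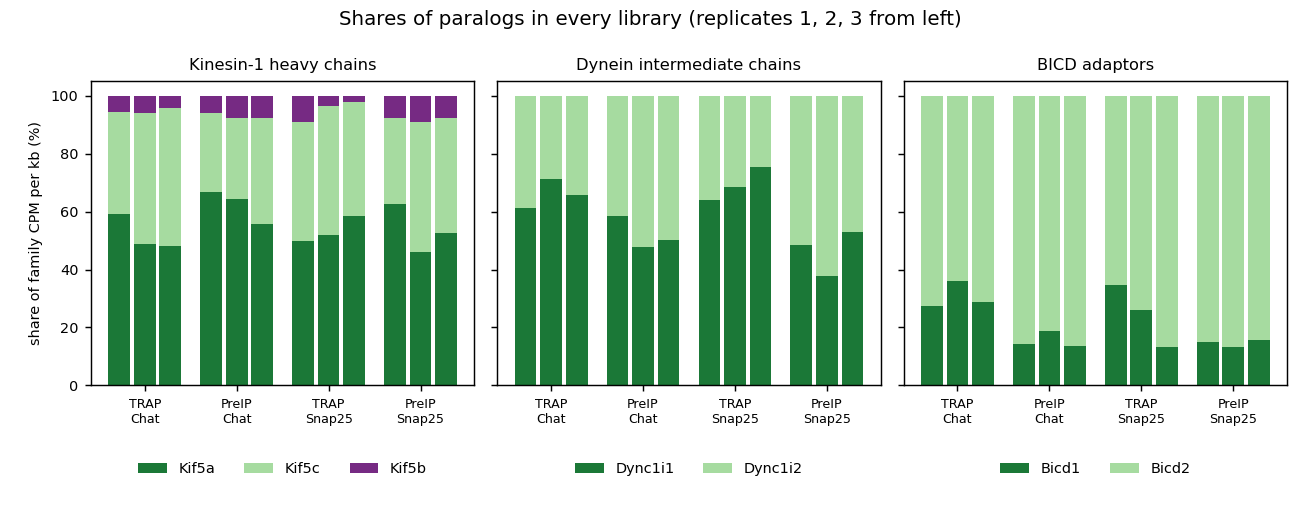
Share of each paralog in its family's summed CPM per kb (y axis, percent) in each library (x axis, replicates 1, 2 and 3 from left in each group), for the kinesin-1 heavy chains, the dynein intermediate chains and the BICD adaptors. Dync1i1 takes 61.1% to 75.4% in the pulldowns of both lines and 37.8% to 58.6% in the inputs, while the Kif5a shares overlap between pulldown and input.

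Of the 7 dynactin genes, 3 rose in the Chat pulldown (42.9%, against 12.6% of all tested genes) and 2 in the Snap25 pulldown (28.6%, against 9.69%), and all were small subunits of the shoulder or the pointed end. Dctn3 had 246, 260 and 318 CPM in TRAP_Chat against 128, 117 and 141 CPM in PreIP_Chat, and 192, 181 and 384 CPM in TRAP_Snap25 against 105, 84.2 and 216 CPM in PreIP_Snap25. The Chat groups did not overlap, and replicate 3 was the highest in both Snap25 groups, which did overlap. The rise was 2.14-fold in the Chat line (edgeR adjusted p = 0.0236; up to 0.0900 without TRAP_Chat replicate 3 or any PreIP_Chat library), and the log2 difference in the Snap25 line was 0.90 ± 0.34 (edgeR adjusted p = 0.0633). Dctn3 was called higher in the Snap25 line by DESeq2 (DESeq2 adjusted p = 0.0393) and by edgeR with the replicate block (edgeR adjusted p = 0.00487).

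Dctn5 had 187, 188 and 218 CPM in TRAP_Chat against 120, 96.2 and 110 CPM in PreIP_Chat, and 179, 171 and 178 CPM in TRAP_Snap25 against 106, 102 and 119 CPM in PreIP_Snap25. No pulldown library overlapped its inputs, with rises of 1.82-fold (edgeR adjusted p = 0.00466) in the Chat line and 1.62-fold (edgeR adjusted p = 0.0191; up to 0.0781 without PreIP_Snap25 replicate 1 or 2, 0.0683 when only the groups compared were fitted and 0.0788 with no filter on low counts) in the Snap25 line. Dctn6 rose 1.69-fold in the Chat line (edgeR adjusted p = 0.0182, and up to 0.0962 without PreIP_Chat replicate 2 or 3). In the Snap25 line Dctn6 rose 1.61-fold (edgeR adjusted p = 0.0337). That call was lost without any PreIP_Chat library, TRAP_Snap25 replicate 1 or 2, or PreIP_Snap25 replicate 1 or 2 (edgeR adjusted p up to 0.147). It was also lost when only the groups compared were fitted (edgeR adjusted p = 0.094) and with no filter on low counts (edgeR adjusted p = 0.0932). Of the exonic bases of Dctn6, 11.8% lie under an antisense gene, so reads there cannot be told apart while the strand setting is unknown.

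Dctn1, the subunit that binds microtubules and dynein, had 65.1, 112 and 133 CPM in TRAP_Chat, 110, 96.8 and 90.0 CPM in PreIP_Chat, 62.1, 61.7 and 144 CPM in TRAP_Snap25 and 108, 58.6 and 79.7 CPM in PreIP_Snap25. All 4 groups overlapped, with log2 differences of 0.06 ± 0.34 in the Chat line and 0.12 ± 0.34 in the Snap25 line (edgeR adjusted p = 0.907 and 0.843). Dctn2, Dctn4 and Actr1a, which builds the filament of the complex, did not pass either. Dctn2 was called higher in the Chat pulldown when only the groups compared were fitted (edgeR adjusted p = 0.0397).

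The adaptor Bicd2, which joins dynein and dynactin to vesicles and to the nucleus, fell in both pulldowns. It had 39.3, 28.6 and 33.9 CPM in TRAP_Chat against 57.8, 47.6 and 61.5 CPM in PreIP_Chat, and 25.2, 32.4 and 23.2 CPM in TRAP_Snap25 against 58.5, 75.7 and 48.9 CPM in PreIP_Snap25. No pulldown library overlapped its inputs. The fall was 1.64-fold in the Chat line (log2 -0.71 ± 0.24, edgeR adjusted p = 0.0394) and 2.26-fold in the Snap25 line (log2 -1.18 ± 0.25, edgeR adjusted p = 0.00358). The Chat call was lost without TRAP_Chat replicate 2 or 3, any PreIP_Chat library or PreIP_Snap25 replicate 1 (edgeR adjusted p up to 0.158) and with no filter on low counts (0.0639), and the Snap25 call stood without each library in turn (edgeR adjusted p up to 0.0222). Bicd1 had 64.3, 69.7 and 59.4 CPM in TRAP_Chat, above all inputs of its line, at 41.3, 47.7 and 41.7 CPM, and above TRAP_Snap25, at 58.2, 49.3 and 15.2 CPM, but passed in neither comparison (edgeR adjusted p = 0.233 and 0.281). With only the groups compared fitted, Bicd1 was called higher than input in the Chat line (edgeR adjusted p = 0.0352).

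Genes with short transcripts held most of the rises. Of the 26 tested members with under 5 kb of summed exons, 11 were called higher in the Chat pulldown (42.3%, beside 15.4% of all tested genes under 5 kb). In the Snap25 pulldown 7 were called higher (26.9%, beside 12.8%). Called lower were 1 in the Chat pulldown (3.85%, beside 11.2%) and 2 in the Snap25 pulldown (7.69%, beside 9.77%). Of the 34 members of 5 kb or more, 1 was called higher and 4 lower in the Chat pulldown, beside 8.49% higher and 18.8% lower over all genes of that length, and 0 higher and 4 lower in the Snap25 pulldown, beside 5.14% and 17.0%. Across the 60 genes, Spearman's rho of exon length with the log2 change was -0.38 in the Chat line and -0.53 in the Snap25 line, beside -0.19 and -0.23 over the 15849 tested genes with a length. Genes are not independent replicates and share the same libraries, so these are descriptions, and the part of transcript length in the changes was not tested.

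**Figure D4:**
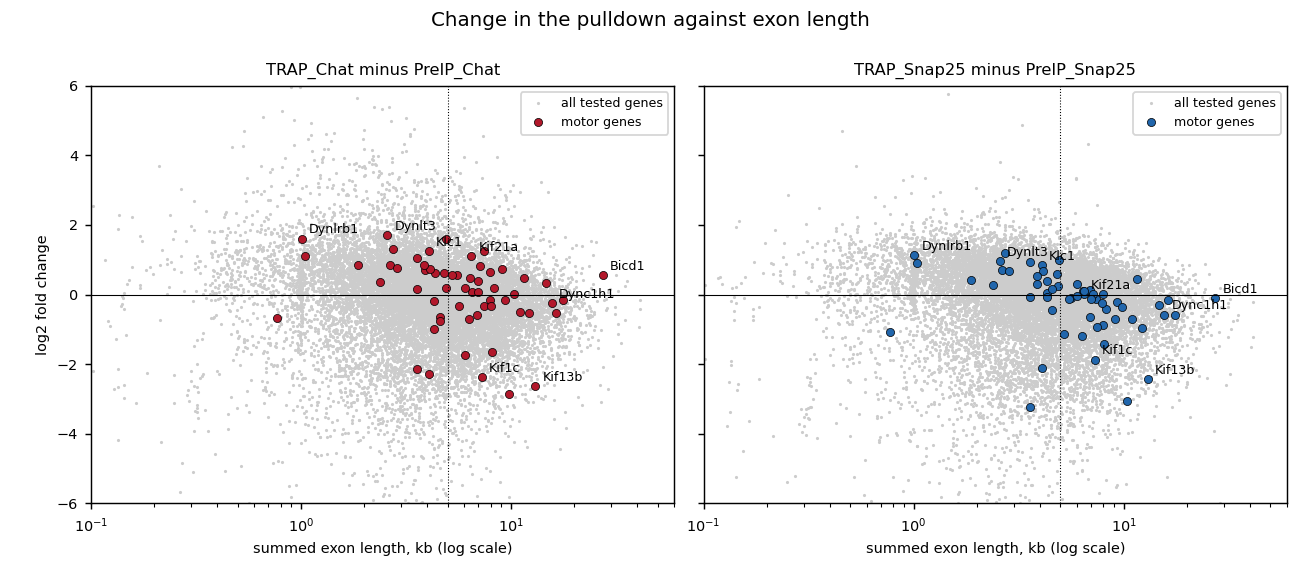
Log2 fold change of pulldown over input (y axis, shown from -6 to 6) against summed exon length in kb (x axis, log scale) for the Chat line and the Snap25 line, with all tested genes in grey, motor genes coloured and a dotted line at 5 kb; Kif2c is left out. The short genes Dynlrb1, Dynlt3 and Klc1 lie above 0 in both panels, and among the longer genes Kif1c and Kif13b lie lowest of those labelled.

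Among other genes of the transport machinery, listed from general knowledge, 38 adaptors and regulators were tested. In the Chat pulldown 5 were called higher (13.2%, against 12.6% of all tested genes) and 3 lower (7.89%, against 14.3%), and in the Snap25 pulldown 7 higher (18.4%, against 9.69%) and 3 lower (7.89%, against 12.7%), with 0 calls between the pulldowns (6 at an unadjusted edgeR p under 0.05). The dynein regulators Ndel1 and Nde1 moved apart in both lines. Ndel1 averaged 82.9 CPM in TRAP_Chat and 29.6 CPM in PreIP_Chat (log2 1.48 ± 0.26, edgeR adjusted p = 0.000718), and Nde1 averaged 6.42 CPM in TRAP_Chat and 34 CPM in PreIP_Chat (log2 -2.40 ± 0.48, edgeR adjusted p = 0.00190). In the Snap25 line the log2 changes were 1.06 ± 0.26 for Ndel1 (edgeR adjusted p = 0.00784) and -2.48 ± 0.48 for Nde1 (edgeR adjusted p = 0.00226).

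Of 15 tested axonemal dynein genes, which drive the beat of cilia and lie outside the rule, 4 were called lower in each pulldown (26.7%, against 14.3% of all tested genes in the Chat line and 12.7% in the Snap25 line). Dnah2 was the 1 called higher than in the input, with 20.3, 18 and 11.6 CPM in TRAP_Chat against 1.95, 2.05 and 2.49 CPM in PreIP_Chat, and 1.54, 2.90 and 4.17 CPM in TRAP_Snap25 against 2.14, 3.04 and 2.35 CPM in PreIP_Snap25. All TRAP_Chat libraries lay above all others, at 7.66-fold over PreIP_Chat (edgeR adjusted p = 0.000278) and 5.82-fold over TRAP_Snap25 (edgeR adjusted p = 0.00215). Between the pulldowns 2 of the 15 were called higher in TRAP_Chat (13.3%, against 3.97%), Dnah2 and Dnaic2, whose means were 1.81 CPM in TRAP_Chat and 0.190 CPM in TRAP_Snap25 (edgeR adjusted p = 0.0407; up to 0.163 on leaving out a library).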

How the data were processed

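The authors deposited whole-number read counts for each Ensembl gene and library. The submitters' processing notes name STAR and HTSeq. Their versions, the build and annotation, and whether strand was used were not given in the sources used here. Per the labels' protocols, pulldown took 4 h at 4 °C, and amplification used the Nugen Ovation RNA-Seq System V2. Of 41736 lines, 824 repeats were dropped, leaving 40912 gene IDs.

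edgeR 4.0.16 (R 4.3.3) was run on the counts of all 12 libraries, with filterByExpr, TMM scaling, 1 mean per group, glmQLFit and glmQLFTest; two-sided p-values were adjusted by Benjamini-Hochberg over 15905 genes. CPM are TMM-scaled, and standard errors follow from the F statistic. Mitochondrial rRNA took 0.209% to 6.67% of pulldown counts and 23.2% to 40.7% of input counts. The 6.67% was that of TRAP_Chat replicate 1, and the next highest pulldown was TRAP_Snap25 replicate 1 at 0.680%. A floor of 3 counts was 0.156 to 0.305 CPM per library and covers counting error only. Exon lengths are summed exons of GENCODE M21, and promoters are RefSeq's on GRCm38.p6. In GENCODE M21, 20 of the 63 genes share exonic bases with another gene. The fit was tested on simulated data.

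The members and lists were chosen with earlier results of these data known. Up to 6 called genes per direction with a mean of at least 1 CPM, and a fixed set of core motors, were named by rule; Kif2c, Dync1li1, Dctn6, Kif21b, Dnah2 and others given in groups were named after their values were seen. Alternatives were RLE scaling, DESeq2 1.42.0, other filters, only the groups compared, a replicate block and leaving out each library.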

Additional observations from a re-analysis of the deposited data

Results flagged for a closer look

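Kif2c differed between the lines in its change from input to pulldown, by a fitted 9.34 on the log2 scale in the test of the difference itself (edgeR adjusted p = 0.0401). With 0 counts in all 3 TRAP_Snap25 libraries this fitted size is no measured fold. The call rests on 65, 5 and 10 counts in TRAP_Chat, 2, 3 and 2 in PreIP_Chat, 0, 0 and 0 in TRAP_Snap25 and 12, 4 and 5 in PreIP_Snap25, and it was lost in 9 of the 12 fits that left out a library (edgeR adjusted p up to 0.118) and with the replicate block (edgeR adjusted p = 0.117). No other motor gene passed the test of this difference in edgeR.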

How the results depend on the processing

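Of 1596 values of single genes under the 18 alternatives, 1508 kept their direction and side of the threshold, 68 lost the call, 20 gained one and 0 were called in the opposite direction; 49 of 1010 alternative values of genes not called changed sign, in 11 genes. Members called higher in the Snap25 pulldown numbered 3 when only the groups compared were fitted, and 2 to 8 on leaving out 1 library; those called lower numbered 3 to 9. In the Chat pulldown the ranges were 8 to 14 higher and 4 to 5 lower. These are counts of members only, without the shares of all tested genes in the same fits. Between the pulldowns, 1 was higher under the filter of 1 CPM in 3 libraries and 0 with only the groups compared, against 2 to 3 higher and 0 to 1 lower on leaving out 1 library; Kif6 was the 1 lower, without TRAP_Chat replicate 3. For the difference between the lines, DESeq2 called 2 (Kif2c and Kif16b), the filter of 1 CPM in 3 libraries 0, the replicate block 0, and leaving out 1 library 0 to 1; the causes were not tested. Same-numbered pulldown and input libraries correlated in their deviations from the group means at 0.06, 0.143 and 0.153 in the Chat line and -0.096, 0.247 and 0.2 in the Snap25 line. Pairs of different number ran from -0.14 to -0.015 in the Chat line, below every same-numbered pair. In the Snap25 line they ran from -0.41 to 0.256 and overlapped the same-numbered pairs. Not every same-numbered pair lay above 0.1, and no pairing was assumed in the main fit. The descriptions of such libraries end in the same numerals, which the labels do not explain, so a pairing remains possible. The replicate block ended only the calls of Kif2c, in the Chat pulldown (log2 2.81, edgeR adjusted p = 0.121) and in the difference between the lines (8.52, edgeR adjusted p = 0.117). With no filter, the median log2 change of all genes in the Snap25 pulldown was -0.14, beside -0.00. Depth limits the genes under 1 CPM, since 3 counts are worth 0.156 to 0.305 CPM.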
